A study of Mus musculus with 6 samples.

Results

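The genes described here are the 3 polypyrimidine tract-binding (PTB) proteins Ptbp1, Ptbp2 and Ptbp3 and 7 other regulators of neuronal splicing: Srrm4, Msi1, Msi2, Rbfox1, Rbfox2, Rbfox3 and Nova2. They were chosen by gene symbol, and all 10 had a row among the 24346 gene symbols of the files. The series holds 6 stranded mRNA libraries from mouse brain at embryonic day 17.5, per the labels. In 3 libraries the embryos are labelled a double knockout, DKO, of the genes miR-124a-1 and -2, and in 3 they are labelled control and carry the genotype miR-124a-1+/-. The control is thus heterozygous for one of the same genes and is no wild type, and the labels name no change of miR-124a-3, the third gene for this microRNA. Strain, litter, sex and the deleted segments are not stated. Nothing in the labels says that the 3 libraries of a label came from separate litters or preparations, so p-values measure the spread between these libraries. Values are FPKM, fragments counted per unit of transcript length and sequencing depth, a measure that lets levels be compared between genes.

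PTB proteins bind pyrimidine-rich RNA and mostly repress exons. PTBP1 is the form of progenitors and non-neuronal cells, and PTBP2 that of neurons. miR-124 is known to target Ptbp1 transcripts in differentiating neurons, and loss of PTBP1 lets Ptbp2 transcripts be spliced into a stable form, a switch that turns on neuronal exons. SRRM4 promotes the very short exons called microexons, the Musashi proteins MSI1 and MSI2 bind RNA in progenitors and promote exons specific to photoreceptors, and the RBFOX and NOVA proteins regulate exons of neuronal transcripts according to where they bind. These statements are background and not results of these libraries.

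The link between Ptbp1 and Ptbp2 runs through a short coding exon that all 3 PTB genes share, shown here because the reading of the 2 levels depends on it. PTB proteins promote skipping of this exon in Ptbp1 and Ptbp2 transcripts, and transcripts without it are degraded. Its length of 34 bases is no multiple of the codon length, so skipping shifts the reading frame. It is exon 10 of 14 in the principal Ptbp1 transcript (chr10:79862014-79862047, plus strand), exon 10 of 14 in that of Ptbp2 (chr3:119724612-119724645, minus strand) and exon 11 of 15 in that of Ptbp3 (chr4:59485339-59485372, minus strand), in GENCODE M21 on GRCm38. Each is printed 5′ to 3′ on the coding strand, with capitals at the 15 positions where the 3 genes do not all have the same base.
Ptbp1: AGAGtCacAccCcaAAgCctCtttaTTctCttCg
Ptbp2: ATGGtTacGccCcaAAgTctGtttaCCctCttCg
Ptbp3: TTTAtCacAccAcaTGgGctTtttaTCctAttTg
The Ptbp1 and Ptbp2 exons were identical at 26 of 34 bases (76.5%), those of Ptbp1 and Ptbp3 at 22 (64.7%) and those of Ptbp2 and Ptbp3 at 21 (61.8%). The annotation holds transcripts that run across the exon without it, and marks 2 of them in Ptbp1 and 2 in Ptbp2 as targets of nonsense-mediated decay, against 0 of 13 transcripts in Ptbp3. The deposited values are sums per gene, so use of this exon was not measured here.

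The libraries as a whole set 3 limits. Sums of FPKM were 402832 to 436299, read totals are not among the values used here, and the steps between low values gave depths of 0.955 to 1.24 relative to DKO replicate 1. The values of both host transcripts of the deleted microRNAs overlapped between the labels, and which part of each gene was deleted is not stated. Mir124a-1hg measured 464 to 510 FPKM in the libraries labelled DKO and 420 to 528 FPKM in those labelled control. 2610100L16Rik, an older symbol of Mir124-2hg, measured 69.9 to 98.0 FPKM in the libraries labelled DKO and 80.3 to 115 FPKM in those labelled control (2-sided exact permutation p of 0.8 and 0.5, where 0.1 is the smallest that 3 against 3 libraries can give). The sum of 4 cone photoreceptor markers was 281 to 367 FPKM over the 6 libraries, while the cortical gene Emx1 was listed at 0 in all 6 libraries and the sum of 4 genes of dividing cells was 0.729 to 1.25 FPKM. These levels go against the labelled tissue and age, and the headers of the DKO columns read CKO, so the groups are named here only by their labels. In limma (Benjamini-Hochberg adjusted p under 0.05, on log2(FPKM + 1)), 3 of the 13215 rows averaging 1 FPKM or more passed, with Dkk3 and Usp47 on the higher side and Cyfip2 on the lower. Usp47 and Cyfip2 each lost the call in 8 of 16 alternative analyses.

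The 10 splicing regulators spanned a wide range of levels in all 6 libraries, and the order of their levels was nearly free of overlap. Msi1 was the highest, with a mean of 248.5 FPKM over the 6 libraries, above 98.3% of the tested rows. Msi2 followed at 66.3 FPKM, and Msi1 was 3.75 times as high as Msi2. Next came Ptbp2 at 45.9, Srrm4 at 34.9, Rbfox2 at 33.5, Ptbp1 at 25.9, Rbfox1 at 20.4 and Rbfox3 at 12.5 FPKM. Nova2 at 7.30 FPKM and Ptbp3 at 3.22 FPKM were the lowest, and 15.6% of the tested rows lay below Ptbp3. Only Srrm4 and Rbfox2, neighbours in this order, had ranges over the 6 libraries that overlapped. All 10 genes passed the filter of a mean of at least 1 FPKM.

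**Figure D1:**
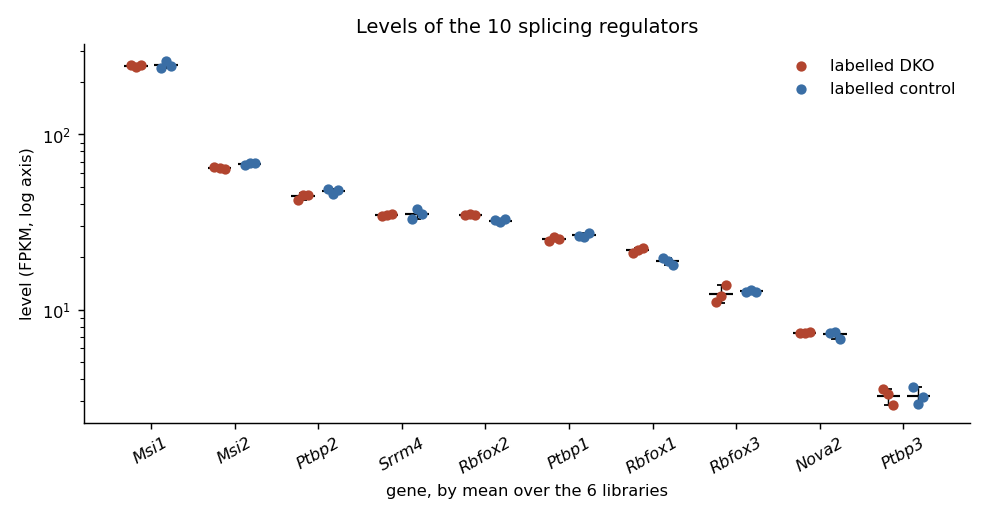
Level of each of the 10 splicing regulators in FPKM on a log axis, ordered by the mean over the 6 libraries. Points are libraries (labelled DKO in red, labelled control in blue), bars are group means and whiskers the SD of 3 libraries; Msi1 stands above the other 9 genes and Ptbp3 below them, and each gene's points lie close together in relation to the distances between most genes.

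None of the 10 genes passed the threshold between the libraries labelled DKO and those labelled control, where 0.0227% of all tested rows did (0.0151% higher and 0.00757% lower). Their limma adjusted p (Benjamini-Hochberg) lay between 0.482 and 0.992, and their log2 fold changes between -0.10 and 0.19. The median was -0.018, against -0.0016 over all tested rows, with 3 genes above 0 and 7 below. At an unadjusted limma p under 0.05 there were 2 of the 10 genes, Rbfox1 and Rbfox2, both higher, against 7.88% of all tested rows (3.52% higher and 4.36% lower). In 4 of the 10 genes no library of one label lay within the range of the other, against 13.9% of all tested rows. Of these, Rbfox1 and Rbfox2 lay higher in the libraries labelled DKO (6.96% of all tested rows), and Ptbp2 and Msi2 lower (6.95%). All rows share the same 6 libraries, so these shares are a description.

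**Figure D2:**
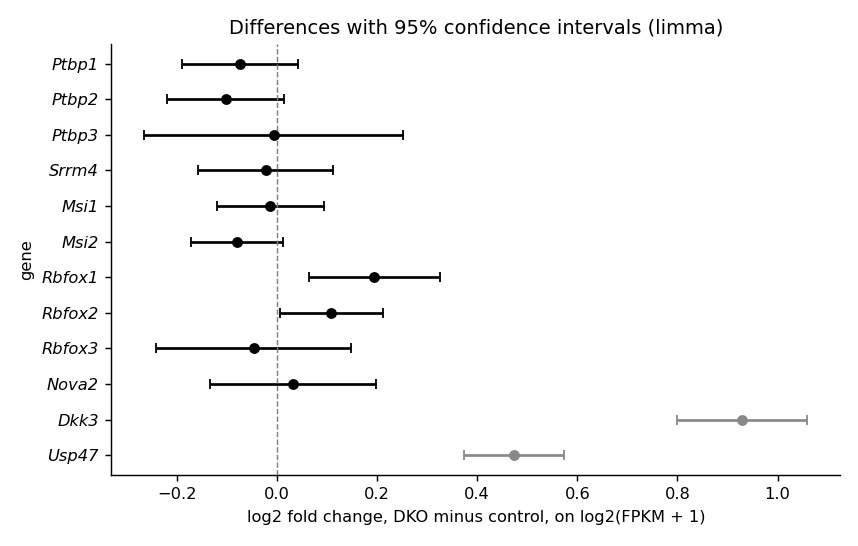
Log2 fold change of each splicing regulator, labelled DKO minus labelled control, on log2(FPKM + 1), with the 95% confidence interval from limma; Dkk3 and Usp47, which passed the threshold over all rows, are added in grey for scale. The intervals of 8 of the 10 regulators include 0, and those of Rbfox1 and Rbfox2 lie above it.

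Ptbp1, the PTB gene known as a target of miR-124, was not higher in the libraries labelled DKO. Ptbp1 (GRCm38 chromosome 10, 79854427 to 79864771, plus strand) had 24.5, 25.8 and 25.3 FPKM in the libraries labelled DKO, against 26.5, 25.8 and 27.5 FPKM in the libraries labelled control. The groups overlapped only at DKO replicate 2, which lay just above control replicate 2, and did not overlap without either of these libraries. The means were 25.2 ± 0.664 and 26.6 ± 0.821 FPKM (SD, n = 3 each), with a log2 fold change of -0.07 (SE 0.050) in limma and a Benjamini-Hochberg adjusted p of 0.774. The 95% confidence interval ran from -0.19 to 0.04, or from 0.876-fold to 1.03-fold of FPKM + 1. A rise of more than 1.03-fold on that scale lay outside the interval of this fit. Exons of Ptbp1 overlap those of 3 annotated genes on the opposite strand, of which Lppr3 (now Plppr3) had 22.2 to 25.2 FPKM and E130317F20Rik had 1.67 to 2.06 FPKM. The library kit keeps the strand, but whether counting used it is not given in the sources used here, so reads of such pairs may have been mixed.

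Ptbp2, the neuronal PTB protein (chromosome 3, 119718742 to 119784466, minus strand), had 42.1, 45.3 and 45.4 FPKM in the libraries labelled DKO, against 48.9, 45.9 and 47.9 FPKM in the libraries labelled control. Every library labelled DKO lay below every library labelled control, by a small margin between DKO replicate 3 and control replicate 2 that quantile normalization removed. The means were 44.3 ± 1.89 and 47.6 ± 1.56 FPKM (SD, n = 3 each), and the log2 fold change was -0.10 (SE 0.051; limma, Benjamini-Hochberg adjusted p = 0.692), with a 95% confidence interval of -0.22 to 0.015. Without DKO replicate 1, the lowest library, it was -0.067. Ptbp3, a PTB protein known from blood cells (chromosome 4, 59471868 to 59549364, minus strand), had 3.50, 3.28 and 2.84 FPKM in the libraries labelled DKO and 3.62, 2.88 and 3.19 FPKM in the libraries labelled control. Its groups overlapped throughout, and its log2 fold change of -0.0065 had a 95% confidence interval of -0.26 to 0.25, the widest of the 10 genes.

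The balance within the PTB family was close in both groups. The ratio of Ptbp2 to Ptbp1 was 1.72, 1.75 and 1.80 in the libraries labelled DKO, against 1.85, 1.78 and 1.75 in the libraries labelled control. The means of this ratio were 1.76 ± 0.0405 and 1.79 ± 0.0521 (SD, n = 3 each), and the groups overlapped. Ptbp2 made up 60.0% to 61.9% of the summed level of the 3 genes over the 6 libraries, Ptbp1 33.5% to 35.0% and Ptbp3 3.86% to 4.99%. The summed level was 70.1, 74.4 and 73.5 FPKM in the libraries labelled DKO and 79.0, 74.6 and 78.6 FPKM in the libraries labelled control. Only the small margin between DKO replicate 2 and control replicate 2 kept these sums apart, and the sum was not tested.

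**Figure D3:**
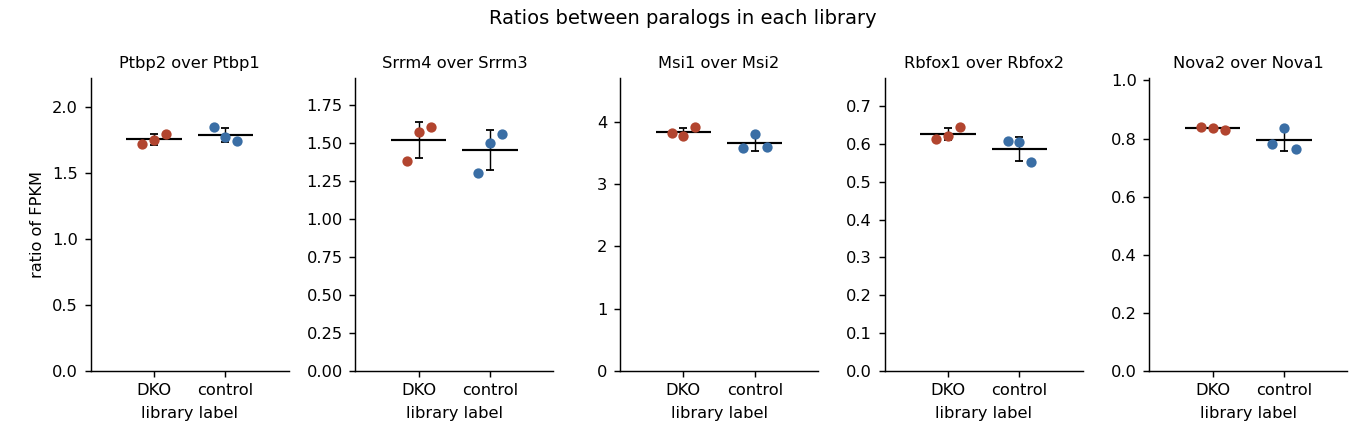
Ratio of FPKM between paralogs in each library (labelled DKO left in red, labelled control right in blue; bars are means, whiskers the SD of 3 libraries). The ratio of Ptbp2 to Ptbp1 overlaps between the labels, with means of 1.76 and 1.79, and of the 5 ratios only that of Rbfox1 to Rbfox2 does not overlap.

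The transcripts whose level followed Ptbp1 most closely over the 6 libraries were Uri1, Polr3f and Erlec1. Pearson's r with Ptbp1 on log2(FPKM + 1) was 0.995, 0.994 and 0.992, and Spearman's rho was 0.943, 1.0 and 0.943. They are the top 3 of 10074 rows that averaged 5 FPKM or more, and 43 of these rows had an r above 0.95. Without the 2 libraries farthest from the median of Ptbp1, r was 0.979, 0.972 and 0.953. With 6 points from the same libraries, high values of r are common among so many rows, and the ranking is a description.

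Srrm4, the activator of neuronal microexons (chromosome 5, 116439275 to 116591817, minus strand), had 34.2, 34.5 and 35.1 FPKM in the libraries labelled DKO, against 32.8, 37.7 and 35.0 FPKM in the libraries labelled control. All 3 libraries labelled DKO lay inside the range of the libraries labelled control. Its log2 fold change of -0.022 had a 95% confidence interval of -0.16 to 0.11. A 68-base stretch of its exons overlaps Srrm4os on the opposite strand, which had 5.84 to 7.63 FPKM. Srrm3, the paralog that shares its domain for microexons, had 24.7, 21.9 and 21.8 FPKM in the libraries labelled DKO and 25.1, 25.1 and 22.4 FPKM in the libraries labelled control. Srrm4 was 1.31 to 1.61 times as high as Srrm3 over the 6 libraries.

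Msi1 (chromosome 5, 115429599 to 115455698, plus strand) had 249.9, 242.7 and 249.4 FPKM in the libraries labelled DKO, against 240.5, 262.2 and 246.5 FPKM in the libraries labelled control. The values of the libraries labelled DKO all lay within the range of the libraries labelled control, and the log2 fold change was -0.013 (95% confidence interval -0.12 to 0.094; 0.011 with quantile normalization). Msi2, its paralog (chromosome 11, 88339382 to 88718513, minus strand), had 65.3, 64.2 and 63.7 FPKM in the libraries labelled DKO, against 67.0, 68.7 and 68.6 FPKM in the libraries labelled control. All 3 libraries labelled DKO lay below all 3 labelled control. The means of Msi2 were 64.4 ± 0.850 and 68.1 ± 0.963 FPKM (SD, n = 3 each), with a log2 fold change of -0.08 (SE 0.040) and a limma adjusted p of 0.695 (Benjamini-Hochberg). The markers of rods and cones, photoreceptors in which Musashi proteins are known to act, lay on the same side. None of the 7 rod and 4 cone markers had a log2 fold change above 0. Lower without overlap were 1 of the 7 rod and 2 of the 4 cone markers, beside 6.95% of all tested rows. Rod sums overlapped, at 12887 to 14111 FPKM in the libraries labelled DKO and 13518 to 14766 FPKM in those labelled control. Cone sums did not overlap, at 281 to 314 FPKM in the libraries labelled DKO and 326 to 367 FPKM in those labelled control. This side was not particular to photoreceptors, since only 1 of 5 bipolar, 1 of 3 horizontal and 1 of 6 ganglion cell markers were above 0. None of these markers was called, and their part in the values of Msi2 was not tested.

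Rbfox1 and Rbfox2 had the largest positive differences among the 10 genes. Rbfox1 (chromosome 16, 5885355 to 7411526, plus strand), a splicing factor of mature neurons and muscle that retinal amacrine and ganglion cells also make, had 21.1, 21.9 and 22.4 FPKM in the libraries labelled DKO, against 19.8, 19.0 and 18.02 FPKM in the libraries labelled control. The lowest library labelled DKO lay above the highest library labelled control. The means were 21.8 ± 0.636 and 18.9 ± 0.869 FPKM (SD, n = 3 each), the log2 fold change was 0.19 (SE 0.057, 95% confidence interval 0.063 to 0.33), and it did not pass (limma unadjusted p = 0.00922, Benjamini-Hochberg adjusted p = 0.482). Its unadjusted p stayed under 0.05 in all 16 alternatives, from 0.00761 to 0.0337 in limma, and its adjusted p was 0.403 to 0.802.

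Rbfox2 (chromosome 15, 77078990 to 77307004, minus strand), the more widely expressed paralog, had 34.5, 35.3 and 34.7 FPKM in the libraries labelled DKO, against 32.6, 31.4 and 32.7 FPKM in the libraries labelled control. The groups again did not overlap. The means were 34.8 ± 0.428 and 32.2 ± 0.692 FPKM (SD, n = 3 each), with a log2 fold change of 0.11 (SE 0.045, 95% confidence interval 0.0054 to 0.21; limma unadjusted p = 0.0414, Benjamini-Hochberg adjusted p = 0.605). The unadjusted p of Rbfox2 was above 0.05 in each of the 6 fits that left out a library. Rbfox3, known as the antigen NeuN of mature neurons (chromosome 11, 118489762 to 118911597, minus strand), had 11.1, 11.997 and 13.9 FPKM in the libraries labelled DKO and 12.6, 13.0 and 12.6 FPKM in the libraries labelled control. The libraries labelled DKO spread to both sides of the control values, and the log2 fold change was -0.05 (95% confidence interval -0.24 to 0.15). Rbfox1 made up 31.6%, 31.7% and 31.5% of the summed level of the 3 Rbfox genes in the libraries labelled DKO, against 30.4%, 29.98% and 28.4% in the libraries labelled control.

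Markers of amacrine cells, the inhibitory interneurons of the inner retina, were higher in the same libraries as Rbfox1 and Rbfox2. All 5 amacrine markers had a log2 fold change above 0 and 4 of them did not overlap between the groups, all higher, where 6.96% of all tested rows did so. Their summed level was 389 to 407 FPKM in the libraries labelled DKO and 343 to 364 FPKM in the libraries labelled control, and none was called (limma, Benjamini-Hochberg adjusted p 0.196 for Tfap2b and more for the others). Markers of retinal ganglion cells lay the other way, with 5 of 6 below 0. Groups did not overlap in 4 of the 6, all lower, where 6.95% of all tested rows did so. Sums of the 6 markers were 578 to 599 FPKM in the libraries labelled DKO and 627 to 677 FPKM in the libraries labelled control. The part of either marker list in the values of the Rbfox genes was not tested, and in bulk RNA a different number of cells and a different amount of RNA per cell cannot be told apart.

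**Figure D4:**
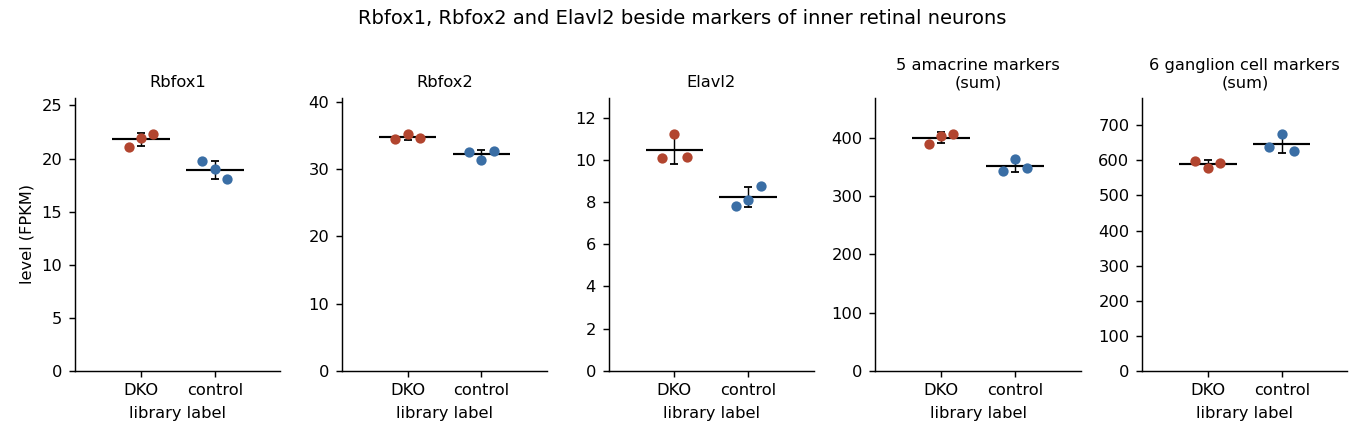
Levels in FPKM of Rbfox1, Rbfox2 and the neuronal RNA-binding gene Elavl2, and summed levels of 5 amacrine and 6 ganglion cell markers, in each library (labelled DKO left in red, labelled control right in blue; bars are means, whiskers the SD of 3 libraries; axes start at 0). The 3 genes and the amacrine sum are higher, and the ganglion cell sum is lower, in all 3 libraries labelled DKO.

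Nova2, a regulator of neuronal exons (chromosome 7, 18925888 to 18965319, plus strand), had 7.39, 7.36 and 7.42 FPKM in the libraries labelled DKO, against 7.38, 7.49 and 6.77 FPKM in the libraries labelled control. The libraries labelled DKO lay within 1 narrow band inside the control range. Its log2 fold change of 0.032 had a 95% confidence interval of -0.13 to 0.20. Its exons overlap Gm26821 on the opposite strand over 2652 bases, a gene not analysed here. Nova1, its paralog, had 8.81, 8.79 and 8.95 FPKM in the libraries labelled DKO and 9.44, 8.94 and 8.87 FPKM in the libraries labelled control, and Nova2 was 0.764 to 0.839 times as high as Nova1.

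Other RNA-binding proteins that set neuronal or general splicing were read in the same fit. Of 60 genes in the list, 56 were tested, and 0 passed in either direction. There were 25 above 0 and 31 below, with a median of -0.025. At an unadjusted limma p under 0.05 there were 6 genes (10.7%), 4 higher and 2 lower, beside 7.88% of all tested rows. Groups did not overlap in 11 (19.6%), 6 higher and 5 lower, beside 13.9% of all tested rows. The 4 untested genes were Mbnl3, Rbm38, Esrp1 and Esrp2, with means of 0.0182 to 0.986 FPKM.

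Among the Elavl genes, whose proteins bind AU-rich RNA and mark neurons except for the ubiquitous Elavl1, the differences were positive for 3 of 4. Elavl2 had 10.1, 11.3 and 10.1 FPKM in the libraries labelled DKO, against 7.83, 8.08 and 8.75 FPKM in the libraries labelled control. These groups did not overlap, and the log2 fold change was 0.32 (SE 0.076; limma, Benjamini-Hochberg adjusted p = 0.378), the largest in the list. Elavl3 had 43.9, 41.9 and 43.5 FPKM in the libraries labelled DKO and 39.4, 39.9 and 39.5 FPKM in the libraries labelled control, again without overlap, with a log2 fold change of 0.12. Elavl4 overlapped, at 12.1, 13.7 and 11.6 FPKM in the libraries labelled DKO and 12.9, 12.6 and 11.2 FPKM in the libraries labelled control. Elavl2 is also known from amacrine cells, whose markers lay on the same side. Markers of other inner retinal neurons lay mostly on the other side, with 1 of 6 ganglion cell and 1 of 3 horizontal cell markers above 0. The part of any of these cells in the values of Elavl2 was not tested.

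Of the 6 Celf genes, 4 were above 0 and 2 below. Celf4 had means of 82.7 ± 2.58 FPKM in the libraries labelled DKO and 78.4 ± 3.34 FPKM in those labelled control (SD, n = 3 each), and Celf3 had 93.1 ± 5.08 FPKM in the libraries labelled DKO and 101 ± 4.10 FPKM in those labelled control. Of the other families, 5 of 9 Hnrnp genes, 3 of 10 Srsf genes, 2 of 3 Khdrbs genes and 0 of 2 tested Mbnl genes were above 0. Srsf2, a splicing activator of the SR family, had the largest negative difference of the list. It measured 88.2, 88.2 and 91.8 FPKM in the libraries labelled DKO, against 104, 103 and 111 FPKM in the libraries labelled control. Its groups did not overlap, and its log2 fold change of -0.24 (SE 0.046) had a limma adjusted p of 0.269 (Benjamini-Hochberg). Hnrnpll, a relative of the PTB partner HNRNPL, had a log2 fold change of -0.17, while Hnrnpa2b1 had 0.15 and the SR-like activator Tra2a 0.19 (0.12 without DKO replicate 3). The limma adjusted p (Benjamini-Hochberg) of these 3 genes was 0.572 to 0.598.

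**Figure D5:**
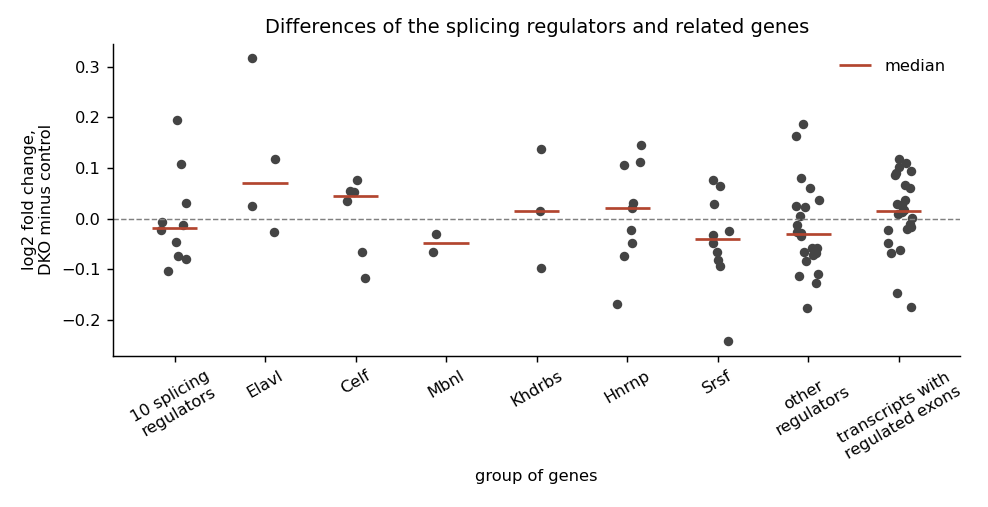
Log2 fold change, labelled DKO minus labelled control, of the 10 splicing regulators, of families within the list of other RNA-binding regulators, and of transcripts with exons known to be set by the 10 regulators; each point is a gene and each red bar the median. Most points lie within 0.2 of 0, with Elavl2 (0.32) the highest and Srsf2 (-0.24) the lowest.

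Transcripts with exons or introns that these regulators are known to set gave no call as genes either. Of 24 such transcripts, 0 passed in either direction, 15 were above 0 and 9 below, and the median log2 fold change was 0.016. At an unadjusted limma p under 0.05 there were 2 (8.33%), both higher, beside 7.88% of all tested rows. Groups did not overlap in 5 (20.8%), 4 higher and 1 lower, beside 13.9% of all tested rows. The gene-level values would show a splicing change only where the other form of the transcript is degraded.

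Transcripts known to be controlled by PTB proteins lay on both sides of 0, with 5 of 8 above. Dlg4, which encodes the synaptic scaffold PSD-95 and whose skipped form is degraded, had 229, 234 and 249 FPKM in the libraries labelled DKO, against 193, 246 and 227 FPKM in the libraries labelled control. Its groups overlapped, with control replicate 1 the lowest library. Gabbr1, a subunit of the GABA-B receptor, averaged 66.4 ± 1.33 FPKM in the libraries labelled DKO and 65.7 ± 1.45 FPKM in those labelled control (SD, n = 3 each). Bak1, a factor of cell death, averaged 8.45 ± 0.843 FPKM in the libraries labelled DKO and 9.65 ± 0.890 FPKM in those labelled control (SD, n = 3 each). The groups of both transcripts overlapped. Flna, the actin crosslinker filamin A, was the 1 transcript of these 8 that lay lower without overlap, with 19.5, 23.2 and 23.4 FPKM in the libraries labelled DKO, against 23.9, 24.6 and 24.7 FPKM in the libraries labelled control. Its log2 fold change of -0.15 was -0.064 without DKO replicate 1. Kif5a, a kinesin heavy chain of axons whose last intron PTBP1 is known to keep unspliced, lay higher without overlap, at 74.1 ± 0.933 FPKM in the libraries labelled DKO and 68.6 ± 1.31 FPKM in those labelled control (SD, n = 3 each). None of these transcripts passed (limma, Benjamini-Hochberg adjusted p 0.585 to 0.960).

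The targets of the other regulators gave 0 calls as well, with Mapt alone at an unadjusted limma p under 0.05. Rest, a repressor of neuronal genes that SRRM4 switches to an inactive form, had 5.54, 4.43 and 5.05 FPKM in the libraries labelled DKO, against 5.09, 5.18 and 4.95 FPKM in the libraries labelled control, and DKO replicates 1 and 2 were the extremes. Of 5 photoreceptor transcripts with exons promoted by Musashi proteins, 3 were above 0, and 2 of the 4 transcripts of Nova proteins were. All 4 transcripts of Rbfox proteins were above 0, as were 6537 of the 13215 tested rows. Their log2 fold changes were 0.0085 to 0.12, with a median of 0.06. Groups did not overlap in 1 of these 4, in 1 of the 5 Musashi and in 1 of the 4 Nova transcripts, all higher. They overlapped in all 3 Srrm4 transcripts, and 13.9% of all tested rows did not overlap. The Rbfox transcript without overlap was Mapt, the microtubule-binding protein tau. It had 68.3, 66.9 and 70.3 FPKM in the libraries labelled DKO, against 63.1, 61.9 and 64.0 FPKM in the libraries labelled control. The groups of Mapt did not overlap, and its log2 fold change of 0.12 (SE 0.042) had a limma adjusted p of 0.572 (Benjamini-Hochberg).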

How the data were processed

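The 6 libraries were made with a stranded mRNA kit from TRIzol RNA, per the labels' protocols, and each file gives a value in FPKM per gene symbol, as deposited by the authors. Per the submitters' processing notes, the build was mm10 and the tools were Bowtie2, TopHat2 2.1.1 and Cuffdiff 2.2.1. Annotation and strand setting, and whether libraries were scaled to each other, are points not given in the sources used here. Of all rows, the 13215 averaging 1 FPKM or more were fitted with limma 3.58.1 (R 4.3.3) as log2(FPKM + 1) (eBayes with a trend, labelled DKO minus labelled control), with Benjamini-Hochberg adjustment over all rows and a threshold of 0.05. Differences on this scale understate changes of low genes. The fit was tested on simulated data. FPKM carry no counts, so precision comes from 3 libraries per group; relative depth is the most frequent ratio between libraries among rows under 0.3 FPKM.

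The regulators, lists and tests were chosen with earlier results of these data known. Besides the 10 genes, the text names 6 fixed regulators (Nova1, Srrm3, Elavl2, Elavl3, Elavl4, Celf4), 5 fixed transcripts (Dlg4, Gabbr1, Bak1, Flna, Rest), and the 3 regulators and 2 transcripts of smallest p in each direction. It also names rows past the threshold and the 3 rows most like Ptbp1. Positions and exon sequences are from GENCODE M21 (GRCm38, the assembly of mm10), read with Python 3.11.15. The alternatives were other pseudocounts, filters, scalings and variance models, a replicate block, leaving out short RNA rows, and leaving out each library. Marker lists of other cell classes were read as well and are not all reported here.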

Additional observations from a re-analysis of the deposited data

How the results depend on the processing

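None of the 10 regulators, the 56 other regulators or the 24 transcripts passed the threshold in any of the 16 alternatives, and Ptbp1 stayed below 0 in all of them (-0.094 to -0.051). The count over all rows was 1 with eBayes without a trend, and 1 to 4 when single libraries were left out (1 without control replicate 2). The count of regulators with an unadjusted p under 0.05 was 1 (Rbfox1) with the replicate block, with eBayes without a trend, with robust eBayes and without each library in turn (1 to 1). The cause was not tested. The deviations of libraries with 1 number in common had r of 0.072, 0.0063 and 0.10. Those of libraries with different numbers had r of -0.12 to 0.036. Replicates 1 and 3 correlated best with their own number, and replicate 2 did not. The numbers were therefore not taken to pair the libraries. The block left 2 rows past the threshold. 2610100L16Rik, lower in each same-numbered pair, had a limma unadjusted p of 0.00208 under the block (Benjamini-Hochberg adjusted p = 0.304), and its log2 fold change was -0.36 (without control replicate 1) to -0.041 (without DKO replicate 1).

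Small differences changed sign when a library was left out. The values for single libraries left out ran from -0.067 to 0.059 for Ptbp3 (above 0 without DKO replicate 3 or control replicate 1), -0.069 to 0.027 for Srrm4 (above 0 without control replicate 2) and -0.13 to 0.020 for Rbfox3 (above 0 without DKO replicate 1). They were -0.0072 to 0.056 for Nova2 (below 0 without control replicate 3) and -0.040 to 0.023 for Msi1 (0.00058 without DKO replicate 2 and highest without control replicate 2), which had 0.011 with quantile normalization. They were -0.040 to 0.069 for Elavl4 (below 0 without DKO replicate 2 or control replicate 3), -0.0015 to 0.032 for Gabbr1 and -0.084 to 0.051 for Rest (each turned without DKO replicate 2), and -0.053 to 0.11 for Mir124a-1hg (below 0 without control replicate 1). The ratio of Ptbp2 to Ptbp1 moved by less than 1 SD without any library. Ptbp3 was not tested at a mean of at least 5 FPKM, and the search for miR-124 seed sites was not run. Read totals are not known, so no floor is given for low rows.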
